A study of Homo sapiens with 6 samples.

Results

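The 10 genes described here encode chaperones and quality-control proteases of mitochondria: HSPD1, HSPE1, HSPA9, DNAJA3, GRPEL1, TRAP1, LONP1, CLPP, CLPX and YME1L1. They are commonly used as transcript markers of the mitochondrial unfolded protein response, and were found by their gene symbols among the 25445 rows of the count table. All 10 were present and all 10 passed the filter on low counts. The cells were MHCC-97H, a long-established line of human liver cancer, kept for 16 h in 10 μM of 6j, a compound derived from sophoridine (an alkaloid of plants), or for 16 h in solvent. RNA-seq of 3 libraries of 6j treated cells and 3 libraries of non-treated (solvent) cells was performed to find genes through which 6j acts. All libraries were from 1 cell line, and neither genotype nor any second agent differed between the groups. The labels do not say that the 3 libraries of a group came from separate cultures, so p-values measure only the spread between libraries, which may be technical.

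Most mitochondrial proteins are made in the cytosol and enter the organelle unfolded. In the matrix they are received by an HSP70 machine and folded in the chaperonin chamber, while ATP-driven proteases remove proteins that fail to fold. When unfolded proteins accumulate, cells can raise the transcripts of these factors together, a programme called the mitochondrial unfolded protein response, which in mammalian cells overlaps with ATF4-dependent stress signalling.

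The 10 genes did not move in one direction in 6j treated cells. LONP1, the main matrix protease, and HSPA9, the matrix HSP70, rose. HSPD1 and HSPE1, the subunits of the matrix chaperonin, fell, as did TRAP1, the mitochondrial HSP90, and CLPP, the proteolytic subunit of a second matrix protease. DNAJA3, GRPEL1, CLPX and YME1L1 did not pass the test. Thus 6 of the 10 were called at an adjusted p under 0.05 in edgeR's quasi-likelihood test, against 9.16% of the 15957 rows tested. Of these, 2 were higher, as were 4.79% of all rows, and 4 were lower, as were 4.37% of all rows. With a fold change above 1.5 required as well, 3 were differentially expressed genes (DEGs), against 3.6% of all rows. LONP1 was higher (2.48% of all rows were higher DEGs), and HSPE1 and TRAP1 were lower (1.12% were lower DEGs). The median log2 fold change of the 10 was −0.14, and that of all rows tested was 0.00. Some of these calls were lost when 1 library was left out, and the number of DEGs over all rows changed in these fits too. It fell from 574 to 186 without non-treated replicate 1 and to 193 without 6j replicate 2. In the other fits it was 379 to 772. Without non-treated replicate 1 or 6j replicate 2, LONP1 alone was called higher and HSPE1 alone lower. Without non-treated replicate 2 or 3, 1 was higher and 2 lower. Without 6j replicate 3, 2 were higher and 2 lower. In bulk RNA, fewer cells of a type and less RNA per cell cannot be told apart. Summed over the 10 genes, the normalized level was 2428 ± 73.4 CPM in non-treated and 2479 ± 79.8 CPM in 6j treated cells (SD, n = 3 each). As a share of the normalized library size this was 0.243% ± 0.00734 and 0.248% ± 0.00798. On this scale their sum moved by less than the spread between libraries.

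**Figure D1:**
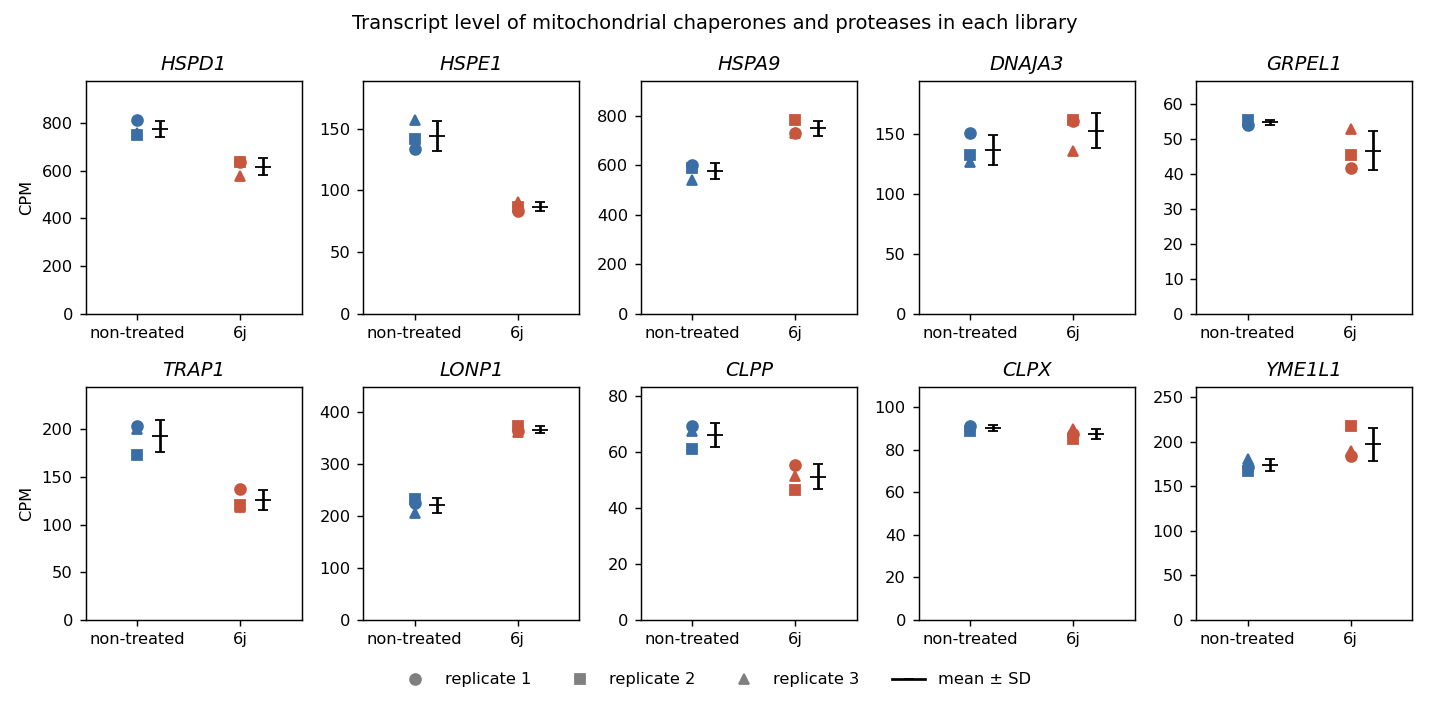
Normalized level (CPM) of each gene in the 3 non-treated (blue) and 3 6j treated (red) libraries, with marker shape for the replicate number and bars for the mean ± SD. The groups do not overlap for LONP1, HSPA9 and YME1L1, which are higher with 6j. They also do not overlap for HSPD1, HSPE1, TRAP1, CLPP and GRPEL1, which are lower. YME1L1 and GRPEL1 were not called, and the groups did not overlap for 31.7% of all rows tested.

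Total counts ranged from 31533403 to 38018349 per library, and the least abundant of the 10 genes, GRPEL1, had 1600 to 2039 counts in each. CPM values are counts scaled to a common library size after TMM normalization. The 9 hepatocyte and epithelial markers, read as a check of the cell type, were divided. The keratins KRT8 and KRT18, which mark epithelial cells, were abundant. Their summed level was 904 to 1109 CPM in non-treated and 705 to 823 CPM in 6j treated cells. Of them KRT8 was lower with 6j (log2 fold change −0.58, edgeR adjusted p = 0.0211), a call that held in 2 of 6 fits without 1 library. The epithelial gene EPCAM, in contrast, was at 0 in every library. The liver genes ALB, AFP, APOA1, SERPINA1, TTR and HNF4A together reached at most 1.61 CPM in any library. ALB, the albumin gene, was at 0 in 5 libraries and had 8 counts in 6j replicate 2. These markers thus did not show a liver identity of the cells. Of 7 markers of other cells, the leukocyte gene PTPRC was at 0 in every library. CD68 of the same list, named after its values were seen, was present in every library. It had 43.7, 70.5 and 39.8 CPM in non-treated and 41.8, 46.1 and 52.1 CPM in 6j treated cells. Of the 7 markers, 4 had enough counts for a test, CD68 among them. None of these 4 was called by edgeR or DESeq2, and 0 had an unadjusted p under 0.05, but the fit blocked by replicate number called the collagen gene COL3A1 lower (log2 fold change −0.36, edgeR adjusted p = 0.00885). The sum of the 7 markers, mostly COL1A1, was 303 to 368 CPM in non-treated and 289 to 353 CPM in 6j treated cells. mRNAs encoded by mitochondrial DNA took 4.36% ± 0.514 (SD, n = 3) of the counts in non-treated and 3.16% ± 0.443 (SD, n = 3) in 6j treated cells. The part of the keratin, collagen and mitochondrial mRNA differences in the results on the 10 genes was not tested.

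HSPD1 and HSPE1 encode the large and the small subunit of the chaperonin in which imported proteins fold. HSPE1 (ENSG00000115541, chr2:197499994-197503457 on the plus strand, GRCh38) had 134, 142 and 157 CPM in non-treated replicates 1 to 3 and 83.4, 86.5 and 90.8 CPM in 6j replicates 1 to 3. Every 6j treated library lay well below every non-treated library. The mean fell from 144 ± 12.0 to 86.9 ± 3.70 CPM (SD, n = 3 each), which was 1.66-fold lower (log2 fold change −0.73, standard error 0.09, 95% interval −0.93 to −0.54, edgeR adjusted p = 0.0036). This was rank 53 by p among 15957 rows. HSPE1 kept its call in all 6 fits that left out 1 library.

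HSPD1 (ENSG00000144381, chr2:197486581-197516737, minus strand) was the most abundant of the 10 in non-treated cells. It had 814, 750.0 and 759 CPM in the non-treated libraries and 638, 638 and 577 CPM in the 6j treated libraries. The groups did not overlap, and the lowest library was 6j replicate 3. The mean fell from 774 ± 34.5 to 618 ± 35.0 CPM (SD, n = 3 each), with a log2 fold change of −0.33 (standard error 0.09, 95% interval −0.52 to −0.13, edgeR adjusted p = 0.0468). This call was close to the threshold, at rank 1390. It was lost whichever of the 6 libraries was left out, with adjusted p from 0.064 to 0.201. With all 6 libraries, DESeq2 called HSPD1 lower (adjusted p = 0.00244). So did the fit blocked by replicate number (edgeR adjusted p = 0.00131), which called 26.9% of all rows. The fall of HSPE1 was larger than that of its partner in each replicate number. For every 100 HSPD1 counts there were 16.5, 18.9 and 20.7 HSPE1 counts in non-treated replicates 1 to 3 and 13.1, 13.6 and 15.7 in 6j replicates 1 to 3. The log2 CPM difference HSPD1 minus HSPE1 rose in each replicate number, by 0.33, 0.48 and 0.40. The mean change was 0.40 against an SD between libraries of 0.16 (two-sided exact permutation p = 0.1, the smallest that 3 against 3 libraries can give; 0.14 adjusted over the 7 pairs compared).

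By their RefSeq starts, HSPD1 and HSPE1 lie head to head on chromosome 2 and are transcribed outward from a shared promoter region. A window of each gene is therefore shown. The gene coordinates given above are from GENCODE, where HSPE1 lies within the longer span of HSPD1. RefSeq promoter windows (GRCh38.p14, from 250 bases before to 50 bases after a gene start) were found for 7 of the 10 genes, in 9 windows. The start of HSPE1 lay 105 bases from one HSPD1 start and 539 bases from the other, on the opposite strand. The HSPE1 window shares 204 bases with that of the nearer HSPD1 start and 0 with that of the farther one. The nearer HSPD1 window, not printed here, holds an E-box at −88 and an NRF1 site at −67 from its start. Both lie in the shared bases and are the sites marked below for HSPE1, read on the other strand. In the HSPE1 window, read 5′ to 3′ on the plus strand, capitals mark an NRF1 site (GCGCA and GCGC with any base between, on either strand) at −47 from the start, and CACGTG, an E-box, at −22. The HSPD1 window shown is that of the farther start, on the minus strand, where capitals mark a pair of overlapping matches to a heat shock element (GAA, any 2 bases, TTC, any 2 bases, GAA, on either strand) at −245 and −240.
HSPE1, chr2:197500129-197500428: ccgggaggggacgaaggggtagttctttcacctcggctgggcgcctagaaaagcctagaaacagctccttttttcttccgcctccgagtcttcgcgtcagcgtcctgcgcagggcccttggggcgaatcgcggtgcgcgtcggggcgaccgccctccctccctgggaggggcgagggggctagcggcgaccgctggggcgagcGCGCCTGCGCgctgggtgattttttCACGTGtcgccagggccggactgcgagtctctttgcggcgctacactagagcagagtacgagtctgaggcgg
HSPD1, chr2:197499791-197500090: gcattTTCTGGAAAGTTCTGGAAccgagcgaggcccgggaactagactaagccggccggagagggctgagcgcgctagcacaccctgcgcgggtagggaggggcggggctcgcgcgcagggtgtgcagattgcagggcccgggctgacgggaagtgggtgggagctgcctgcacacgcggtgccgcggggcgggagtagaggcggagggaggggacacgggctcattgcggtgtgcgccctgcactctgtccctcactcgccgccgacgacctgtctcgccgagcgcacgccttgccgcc
The search covered both strands and was set up with the expression values known. Of 34943 RefSeq windows of the same length, 0.49% held the heat shock element, 5.74% the NRF1 site and 7.23% the E-box. A match is a string of letters and was not shown to bind a factor.

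Annotated exons of HSPD1 and HSPE1 on opposite strands share 281 bases, which is 6.62% of the exon bases of HSPD1 and 14.2% of those of HSPE1. Whether the counting used strand is not stated, so reads from these bases cannot be told apart. The readthrough gene HSPE1-MOB4, which shares 192 bases with HSPE1, had 0 counts. GENCODE lists 17 pseudogenes of HSPD1 and 26 of HSPE1, none of them a row of the table, and how reads matching several copies were assigned is not stated. Both levels are uncertain to that extent.

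HSPA9 encodes mortalin, the matrix HSP70 that pulls proteins through the import channel and holds them for folding. It lies at chr5:138553756-138575724 on the minus strand (ENSG00000113013). Its level was 601, 587 and 541 CPM in non-treated replicates 1 to 3 and 732, 784 and 732 CPM in 6j replicates 1 to 3. Each 6j treated library was above each non-treated library. The mean was 577 ± 31.5 CPM without and 749.6 ± 30.2 CPM with 6j (SD, n = 3 each), and the log2 fold change was 0.38 (standard error 0.08, 95% interval 0.19 to 0.57, edgeR adjusted p = 0.0273). The call held in 2 of 6 fits that left out 1 library and was lost without non-treated replicates 1, 2 or 3 or 6j replicate 2 (adjusted p = 0.101, 0.0707, 0.0901 and 0.11). With all 6 libraries, DESeq2 (adjusted p = 0.000254) and the fit blocked by replicate number (edgeR adjusted p = 0.000537) also called HSPA9 higher. Since HSPA9 rose and HSPD1 fell, their order by raw counts turned, but these counts take no account of gene length. There were 0.739, 0.783 and 0.713 HSPA9 counts for each HSPD1 count in non-treated cells, and 1.15, 1.23 and 1.27 in 6j treated cells. This ratio was not among the 7 pairs compared. Per kilobase of exon, HSPD1 stayed above HSPA9 with 6j, at 146 ± 8.24 against 90.8 ± 3.65 CPM per kilobase (SD, n = 3 each).

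DNAJA3 is the J-domain partner that drives ATP hydrolysis by HSPA9, and GRPEL1 is the nucleotide exchange factor that resets it. DNAJA3 (ENSG00000103423, chr16:4425805-4456775, plus strand) had 150.4, 132 and 126 CPM in non-treated and 160.3, 162 and 136 CPM in 6j treated cells. The groups overlapped, and the log2 fold change was 0.16 (standard error 0.10, 95% interval −0.06 to 0.39, edgeR adjusted p = 0.347). GRPEL1 (ENSG00000109519, chr4:7058906-7068197, minus strand) had 54.1, 55.5 and 54.7 CPM in non-treated and 41.6, 45.5 and 52.7 CPM in 6j treated cells. The 3 non-treated libraries were nearly equal, and the 6j treated libraries lay below them but spread widely, with replicate 3 just under the non-treated level. The log2 fold change was −0.23 (standard error 0.10, 95% interval −0.46 to −0.01), which did not pass the test (edgeR adjusted p = 0.178). A fit blocked by replicate number did call it (log2 fold change −0.24, edgeR adjusted p = 0.0405). That fit called 7 of the 10 genes, 5 of them lower, and 26.9% of all rows in either direction and 13.9% as lower. The other human exchange factor of this machine, GRPEL2, rose from 31.0 ± 0.707 to 49.1 ± 3.11 CPM (SD, n = 3 each; log2 fold change 0.66, standard error 0.09, edgeR adjusted p = 0.00559) and kept its call whichever library was left out. In a ratio chosen after these values were seen, there were 1.71, 1.79 and 1.81 GRPEL1 counts for each GRPEL2 count in non-treated cells and 0.816, 0.895 and 1.16 in 6j treated cells. Within the HSP70 machine, HSPA9 and GRPEL2 were thus called higher, and DNAJA3 and GRPEL1 were not called.

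TRAP1 is the HSP90 of the mitochondrial matrix. It lies at chr16:3651639-3717597 on the minus strand (ENSG00000126602). Its level was 204, 173 and 201 CPM in non-treated replicates 1 to 3 and 137, 121 and 119 CPM in 6j replicates 1 to 3. The highest 6j treated library was below the lowest non-treated library. The mean fell from 193 ± 16.8 to 126 ± 10.2 CPM (SD, n = 3 each), which was 1.53-fold lower (log2 fold change −0.62, standard error 0.10, 95% interval −0.83 to −0.40, edgeR adjusted p = 0.00934). The call was lost without non-treated replicate 1 (adjusted p = 0.0557) or 6j replicate 2 (adjusted p = 0.0607). Exons of DNASE1 on the opposite strand share 1531 bases with TRAP1, 29.3% of its exon bases. Over the 6 libraries DNASE1 had 3862 counts and TRAP1 had 34045.

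LONP1 encodes the Lon protease, which degrades oxidized and misfolded matrix proteins. It lies at chr19:5691834-5720572 on the minus strand (ENSG00000196365). Its level was 224, 232 and 204 CPM in non-treated replicates 1 to 3 and 362, 372 and 360.5 CPM in 6j replicates 1 to 3. The 6j treated libraries were close to each other and far above all non-treated libraries. The mean rose from 220.0 ± 14.1 to 365 ± 6.41 CPM (SD, n = 3 each), which was 1.66-fold (log2 fold change 0.73, standard error 0.08, 95% interval 0.55 to 0.91, edgeR adjusted p = 0.00292). It ranked 36 by p among all rows and kept its call in all 6 fits that left out 1 library. Exons of RPL36 on the other strand share 43 bases, 0.846% of the exon bases of LONP1.

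CLPP and CLPX form the second matrix protease: CLPX unfolds the substrate and CLPP cuts it. CLPP (ENSG00000125656, chr19:6361452-6368910, plus strand) had 69.2, 61.0 and 67.4 CPM in non-treated and 55.2, 46.3 and 51.5 CPM in 6j treated cells. The groups did not overlap. The mean fell from 65.8 ± 4.32 to 51.0 ± 4.46 CPM (SD, n = 3 each), with a log2 fold change of −0.37 (standard error 0.09, 95% interval −0.58 to −0.16, edgeR adjusted p = 0.0427). When 1 library was left out, CLPP kept its call only without 6j replicate 1. Without each of the others the adjusted p reached up to 0.174. With all 6 libraries, the fit blocked by replicate number also called CLPP lower (edgeR adjusted p = 0.00134). CLPX (ENSG00000166855, chr15:65148219-65185342, minus strand) had 91.2, 88.8 and 91.1 CPM in non-treated and 87.3, 85.1 and 90.0 CPM in 6j treated cells. The groups overlapped, with a log2 fold change of −0.05 (standard error 0.07, 95% interval −0.21 to 0.11, edgeR adjusted p = 0.731). For each CLPP count there were 1.32, 1.46 and 1.35 CLPX counts in non-treated cells and 1.58, 1.84 and 1.75 in 6j treated cells.

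The balance between the proteases moved as well. For each CLPP count there were 3.23, 3.80 and 3.03 LONP1 counts in non-treated replicates 1 to 3 and 6.56, 8.04 and 7.0 in 6j replicates 1 to 3. The lowest 6j treated library was thus far above the highest non-treated library. The log2 CPM difference LONP1 minus CLPP rose from 1.74 to 2.84, a change of 1.10 with an SD between libraries of 0.16. The difference CLPP minus CLPX went from −0.46 to −0.78, a change of −0.32 with an SD of 0.09. In both pairs the groups did not overlap, and the two-sided exact permutation p was 0.1, the smallest possible (0.14 adjusted over the 7 pairs).

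YME1L1 is an ATP-dependent protease of the inner membrane that faces the intermembrane space, so unlike the other 9 genes it does not act in the matrix. It lies at chr10:27110112-27155266 on the minus strand (ENSG00000136758). It had 172, 168 and 181 CPM in non-treated and 184, 218 and 189 CPM in 6j treated cells. All 6j treated libraries were above the non-treated libraries, but replicates 1 and 3 only slightly. The log2 fold change was 0.18 (standard error 0.09, 95% interval −0.01 to 0.38, edgeR adjusted p = 0.223). MASTL on the opposite strand shares 443 exon bases, 6.04% of those of YME1L1. With YME1L1 counted, the 6j treated libraries were all above the non-treated for 3 of the 10 genes and all below for 5. Over all rows tested these shares were 16% and 15.8%.

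**Figure D2:**
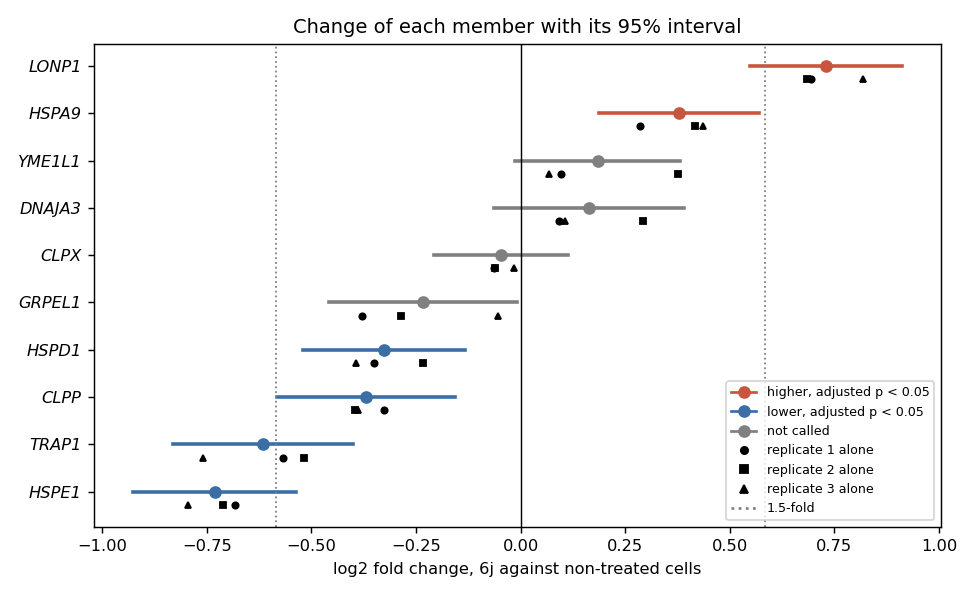
Log2 fold change (horizontal axis) of each gene in 6j treated against non-treated cells, with its 95% interval as a line and the difference within each replicate number as small symbols; dotted lines mark 1.5-fold. LONP1 at 0.73 and HSPE1 at −0.73 are at the ends, and the intervals of CLPX, DNAJA3 and YME1L1 cross 0.

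The promoter windows of LONP1 and HSPA9, which rose, and of TRAP1, which fell, are shown to set them beside the chaperonin promoter. All are on the minus strand and written 5′ to 3′. Capitals mark the E-box CACGTG at −212 and −49 in LONP1 and at −19 in HSPA9. In TRAP1 they mark a cAMP response element, TGACGTCA, at −94, a motif that 1.84% of all windows held.
LONP1, chr19:5720097-5720396: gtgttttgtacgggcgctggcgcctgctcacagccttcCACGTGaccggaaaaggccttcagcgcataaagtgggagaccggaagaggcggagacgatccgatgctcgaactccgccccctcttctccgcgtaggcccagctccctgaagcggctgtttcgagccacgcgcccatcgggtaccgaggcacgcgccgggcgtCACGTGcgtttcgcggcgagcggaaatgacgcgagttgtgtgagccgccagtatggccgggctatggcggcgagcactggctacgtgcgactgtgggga
HSPA9, chr5:138575352-138575651: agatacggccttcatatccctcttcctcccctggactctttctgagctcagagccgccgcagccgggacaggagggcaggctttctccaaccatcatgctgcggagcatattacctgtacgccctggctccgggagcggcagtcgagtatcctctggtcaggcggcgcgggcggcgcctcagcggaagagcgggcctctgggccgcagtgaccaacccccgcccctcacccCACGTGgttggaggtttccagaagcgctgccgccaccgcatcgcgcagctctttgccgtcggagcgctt
TRAP1, chr16:3717475-3717774: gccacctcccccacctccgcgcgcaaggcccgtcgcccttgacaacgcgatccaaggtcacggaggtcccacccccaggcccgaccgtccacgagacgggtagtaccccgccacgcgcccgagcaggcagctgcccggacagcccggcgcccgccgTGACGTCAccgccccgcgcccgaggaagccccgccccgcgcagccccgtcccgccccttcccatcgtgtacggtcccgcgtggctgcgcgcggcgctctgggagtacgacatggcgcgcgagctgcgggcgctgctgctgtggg
The E-box was thus found near genes that rose (LONP1, HSPA9) and near the chaperonin genes, which fell. For the chaperonin genes it is the same site in the HSPE1 window and the nearer HSPD1 window. Besides the chaperonin genes, whose windows likewise share 1 such site, the NRF1 site was found in the windows of DNAJA3 and CLPX and of another LONP1 start. No window of these genes held TGATGNAA, the ATF4-C/EBP composite element, which was in 3.62% of all windows, or the ER stress element (CCAAT and CCACG with any 9 bases between), which was in 0.08%. This says only that these letters are not in the windows searched.

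Levels of different genes were compared per kilobase of exon. In non-treated cells the order was HSPD1 (182 ± 8.13 CPM per kilobase), HSPE1 (73.0 ± 6.05), HSPA9 (69.9 ± 3.82), LONP1 (43.3 ± 2.78), TRAP1 (36.8 ± 3.22), CLPP (28.9 ± 1.90), YME1L1 (23.6 ± 0.914), DNAJA3 (19.3 ± 1.78), CLPX (16.6 ± 0.244) and GRPEL1 (13.1 ± 0.163; SD, n = 3 throughout). Among neighbours in this order by exon union, the libraries overlapped for HSPE1 and HSPA9 and for no other pair. The chaperonin was thus the most abundant machine per length and the co-factors of the HSP70 machine were among the least. In 6j treated cells HSPD1 stayed first at 146 ± 8.24 CPM per kilobase. HSPA9 (90.8 ± 3.65) came next, followed by LONP1 (71.8 ± 1.26), both above HSPE1 (44.0 ± 1.87), with no overlap between these neighbours. YME1L1 (26.8 ± 2.49), TRAP1 (24.0 ± 1.95), CLPP (22.4 ± 1.96) and DNAJA3 (21.6 ± 2.05) followed, with overlap between each of these neighbours. CLPX (16.0 ± 0.452), below all libraries of DNAJA3, and GRPEL1 (11.2 ± 1.35) were last. Parts of this order depended on the length used. Per kilobase of the longest annotated transcript, TRAP1 (83.4 ± 7.29 CPM per kilobase) was above LONP1 (68.0 ± 4.36) and GRPEL1 (19.7 ± 0.246) just above CLPX (19.3 ± 0.284) in non-treated cells, in neither case with overlap. HSPE1 and HSPA9 then no longer overlapped, while YME1L1 and DNAJA3 did. In 6j treated cells HSPD1, HSPA9, LONP1 and HSPE1 were the first 4 with either length, in that order and without overlap.

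**Figure D3:**
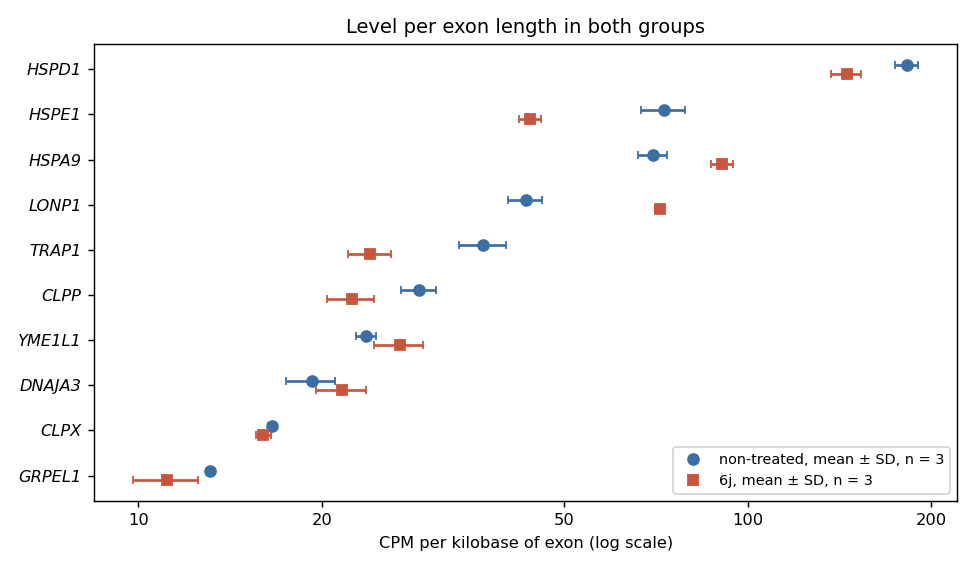
Level of each gene in CPM per kilobase of exon (log axis), as mean ± SD of 3 libraries for non-treated (blue circles) and 6j treated cells (red squares). LONP1 and HSPA9 pass HSPE1 with 6j, while HSPD1 stays the highest. GRPEL1 is the lowest on this scale, but per kilobase of the longest transcript CLPX is the lowest in non-treated cells.

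Chaperones of the same families work in other compartments, which allowed each mitochondrial member to be set beside its counterpart. HSPA9 was compared with HSPA5, the HSP70 of the endoplasmic reticulum (ER), and HSPA8, the constitutive HSP70 of the cytosol. HSPA5 rose from 1508 ± 98.7 to 1986 ± 97.2 CPM (log2 fold change 0.40, edgeR adjusted p = 0.033), but when 1 library was left out this call held only without 6j replicate 3. The log2 CPM difference HSPA9 minus HSPA5 was −1.39 in non-treated and −1.40 in 6j treated cells, a change of −0.02 with an SD between libraries of 0.06 (two-sided exact permutation p = 0.7). Leaving out non-treated replicate 2 turned this change to 0.02 and leaving out 6j replicate 1 to 0.0097. HSPA8 fell from 1531 ± 130.3 to 1002 ± 100.5 CPM (log2 fold change −0.61, edgeR adjusted p = 0.0125), a call lost without non-treated replicate 1 or 6j replicate 2 (adjusted p up to 0.0633). HSPA9 minus HSPA8 therefore moved from −1.41 to −0.41, a change of 0.99 with an SD of 0.15 and no overlap (exact permutation p = 0.1, the smallest possible).

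In the HSP90 family, TRAP1 and its cytosolic counterpart were both lower. TRAP1 was compared with HSP90AB1 of the cytosol and HSP90B1 of the ER. HSP90AB1 fell from 2685 ± 61.3 to 1799 ± 137 CPM (log2 fold change −0.58, edgeR adjusted p = 0.0113), a call lost without non-treated replicate 1 (adjusted p = 0.0663). TRAP1 minus HSP90AB1 was −3.80 in non-treated and −3.84 in 6j treated cells, a change of −0.04 with an SD of 0.10 (two-sided exact permutation p = 0.5). Without 6j replicate 3 this change was 0.02. HSP90B1 had 1969 ± 257 and 1909 ± 228 CPM and was not called (log2 fold change −0.04, edgeR adjusted p = 0.869). Its log2 fold change was 0.05 without non-treated replicate 3 and 0.02 without 6j replicate 2. TRAP1 minus HSP90B1 moved from −3.35 to −3.92, a change of −0.57 with an SD of 0.19 and no overlap (exact permutation p = 0.1). An exact p of 0.1 was reached by 5 of the 7 pairs and was 0.14 after adjustment, so no pair could pass 0.05 in this design.

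**Figure D4:**
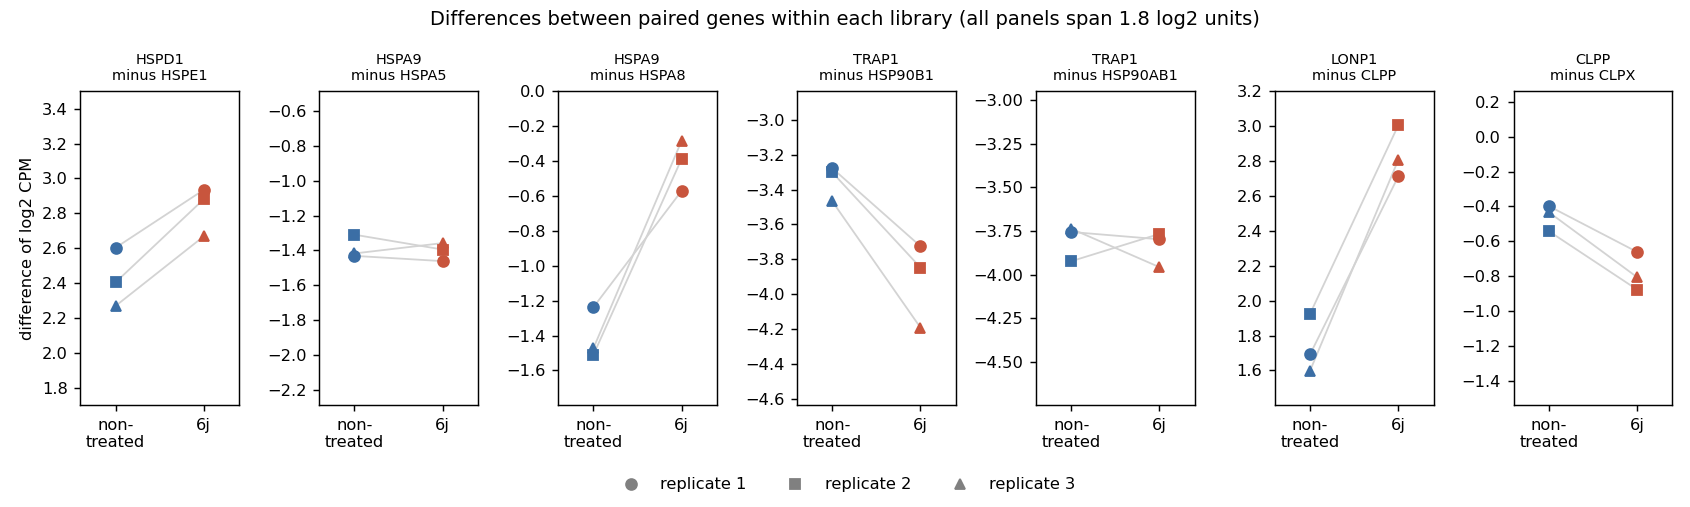
Difference of log2 CPM between the genes of each pair within each library (vertical axis, log2 units), with lines joining libraries of the same replicate number and every panel spanning the same range. HSPA9 minus HSPA8 and LONP1 minus CLPP rise by 0.99 and 1.10, while HSPA9 minus HSPA5 and TRAP1 minus HSP90AB1 overlap between the groups.

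Gene lists around the 10 genes were then read from the same fit, in which 4.79% of all rows were higher and 4.37% lower. Of 13 other mitochondrial proteases, none was higher and 3 were lower, with a median log2 fold change of −0.14. Those with the smallest adjusted p were PMPCA, a subunit of the peptidase that removes import signals (log2 fold change −0.48, edgeR adjusted p = 0.0221), and SPG7, an inner membrane protease subunit (−0.42, adjusted p = 0.0241). Both calls held in 3 of 6 fits that left out 1 library. The list had 0 lower genes without non-treated replicate 1 or 6j replicate 2, and 1 without non-treated replicate 2 or 3. Of 14 other mitochondrial chaperones and assembly factors, GRPEL2 was higher and 2 were lower, with a median of −0.28. Among the lower was CLPB, a disaggregase of the intermembrane space (−0.49, edgeR adjusted p = 0.0122). Leaving out 1 library, GRPEL2 stayed the 1 higher gene, and the lower genes numbered 0 (without non-treated replicate 1 or 6j replicate 2) to 4 (without 6j replicate 1), with 1 in the other fits. Of 23 import genes, 1 was higher and 6 were lower, with a median of −0.23, and TOMM5 (−0.51, edgeR adjusted p = 0.00854) and TOMM40 (−0.50, adjusted p = 0.0211), of the outer membrane entry gate, were first by p. The 6 lower fell to 0 without non-treated replicate 1, to 1 without non-treated replicate 3 or 6j replicate 2 and to 2 without non-treated replicate 2, and the 1 higher, a share close to that of all rows, was kept only without 6j replicate 3. TOMM5 held its call in 5 of 6 of these fits and TOMM40 in 3. The blocked fit called 10 import genes and 5 of the other chaperones and assembly factors lower, and 2 import genes higher, against 13.9% of all rows lower and 13.1% higher in that fit.

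All 8 subunits of the cytosolic chaperonin TRiC were lower (median log2 fold change −0.45). First by p were CCT6A (−0.51, edgeR adjusted p = 0.0113) and CCT2 (−0.46, adjusted p = 0.0117). Of 13 other cytosolic chaperones, 8 were lower and 5 were not called, with a median of −0.41, and those first by p were HSP90AA1 (−0.58, edgeR adjusted p = 0.00891) and HSP90AB1, given above. Without non-treated replicate 1 no gene of either list was called, and without 6j replicate 2 no TRiC subunit and 2 of the other cytosolic chaperones were. The 12 ER chaperones were divided, with 2 higher, 2 lower and a median of −0.02. SDF2L1 (−0.61, edgeR adjusted p = 0.00723) and MANF (−0.35, adjusted p = 0.0374) were lower. HSPA5 and DNAJC3, a J-domain protein of the ER (0.43, adjusted p = 0.0374), were higher. DNAJC3 and MANF were named after their values were seen. SDF2L1 kept its call in all 6 fits without 1 library and DNAJC3 in 2. The 2 higher fell to 0 without non-treated replicate 1 or 2 or 6j replicate 2 and to 1 in each of the other 3 fits. The 2 lower fell to 1 without any 1 of the non-treated replicates or 6j replicate 2. The blocked fit called 4 ER chaperones higher and 4 lower.

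Of 10 regulators of mitochondrial stress signalling, 4 were higher and none lower, with a median log2 fold change of 0.15. DDIT3, a stress-induced transcription factor, had 19.2, 25.6 and 18.1 CPM in non-treated and 86.5, 116 and 102 CPM in 6j treated cells (log2 fold change 2.27, edgeR adjusted p = 0.000575). ATF4, the main transcription factor of the integrated stress response, had 313, 349 and 289.6 CPM in non-treated and 693, 660.1 and 686 CPM in 6j treated cells (log2 fold change 1.10, edgeR adjusted p = 0.000839). ATF5, a factor linked to the mitochondrial response and named after its value was seen, had a log2 fold change of 0.22 and was not called (edgeR adjusted p = 0.335). ATF4 and DDIT3 kept their calls in all 6 fits that left out 1 library. The 4 higher regulators were 2 without non-treated replicate 1 or 2 or 6j replicate 2 and 3 in the other fits. Of the 13 other mitochondrial proteases, the TRiC subunits and the other cytosolic chaperones none was higher, and of the regulators none lower, in edgeR, in DESeq2 or at an unadjusted p under 0.05 (0 in each). Over these 7 lists and a list of 7 mitochondrial antioxidant enzymes, 10 genes were higher and 32 lower. Of all rows tested, 4.79% were higher and 4.37% lower. Without non-treated replicate 1 the counts were 3 and 1, without 6j replicate 2 they were 3 and 4, without non-treated replicate 2 they were 3 and 17, and without non-treated replicate 3 they were 5 and 15. In the order given, DEGs over all rows in those fits were 186, 193, 507 and 379, against 574 with all 6 libraries. Without 6j replicate 1, 6 were higher, and DEGs over all rows numbered 772.

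**Figure D5:**
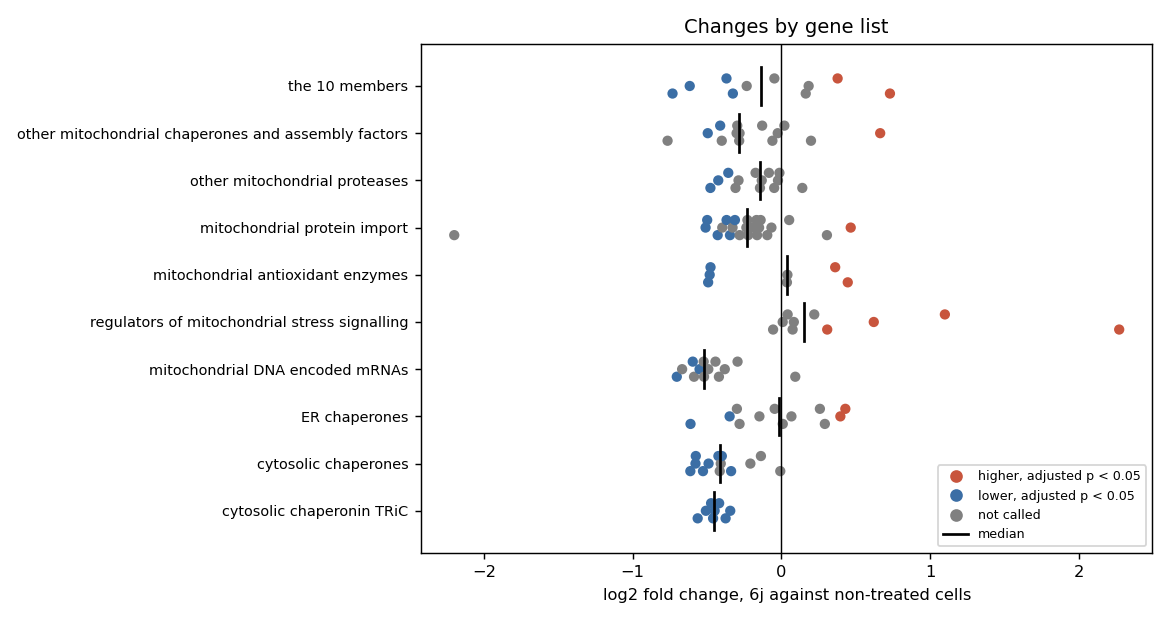
Log2 fold change in 6j treated against non-treated cells (horizontal axis) of every gene of each list, coloured by the call at an adjusted p under 0.05, with a bar at the list's median. The 10 mitochondrial chaperones and proteases spread to both sides of 0, whereas all 8 TRiC subunits lie below it.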

How the data were processed

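Total RNA of MHCC-97H cells was enriched for mRNA with oligo(dT) beads and sequenced in 6 libraries. What the authors deposited are raw whole-number counts on genes in 1 column per library. The submitters' processing notes name HISAT2, StringTie and GRCh38. The counting program, its use of strand and the annotation are not given in the sources used here. In each library fewer rows held a 1 (142 to 175) than a 2 (557 to 692), so some counts may be estimates that were rounded. They were not altered. Replicates were not pooled and 0 columns were left out. For 27 rows the symbol had become a date and was taken from GENCODE version 29 (GRCh38) instead, which also gave coordinates and exon lengths (union of exons) for all 19974 Ensembl identifiers. The other 5471 rows were new genes of the authors' assembly and carried no coordinates.

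In edgeR 4.0.16 (R 4.3.3, limma 3.58.1), filterByExpr (minimum count 10, minimum total 15) kept 15957 rows, TMM factors were computed, and robust quasi-likelihood models without covariates were fitted to all of them. P-values were adjusted over all rows by Benjamini-Hochberg. Calls used an adjusted p under 0.05, and DEGs also a fold change above 1.5. The paper names DESeq2 with the same fold change and a p under 0.05, and DESeq2 1.42.0 was run as an alternative. Log2 CPM used a prior count of 2. Standard errors were computed from the F statistic. For the differences between 7 pairs of genes, Python 3.11.15 and scipy 1.17.1 ran exact permutation tests. The edgeR and DESeq2 fits were tested on simulated counts, with larger changes than those of the 10 genes and no effect of the replicate number. That test therefore does not cover changes of the size seen here.

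The groups share replicate numbers, but what a number stands for is not in the labels. Across rows, deviations from the group mean correlated at 0.171, 0.18 and 0.312 between libraries of one number and at −0.231 to 0.0795 for different numbers, so the numbers were treated as pairing the libraries in an alternative fit blocked by that number.

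The 10 genes, the gene lists, the pairs and the motifs were chosen with earlier results of these data known. The rule for named genes took the 10 genes, the genes of the pairs, the 2 genes with the smallest adjusted p of each list, and the 3 genes most like HSPD1 and HSPA9 over the libraries. Lists covered other mitochondrial proteases, other mitochondrial chaperones and assembly factors, import, regulators, antioxidant enzymes, cytosolic and ER chaperones, TRiC, mRNAs of mitochondrial DNA and cell type markers. Alternatives were other normalizations, filters and thresholds, DESeq2, Ensembl genes only, the block, another prior count or gene length, and leaving out each library. Precision depends on the spread between the 3 libraries of a group as well as on total counts, which were 31533403 to 38018349 per library.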

Additional observations from a re-analysis of the deposited data

How the results depend on the processing

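The direction of each of the 10 genes was the same under all 13 alternatives run for it. Other normalizations, other filters, DESeq2 and Ensembl genes only left the members' calls at 2 higher and 4 lower. With the replicate number as a block, GRPEL1 was added to the lower genes (log2 fold change −0.24) and no other call among the 10 changed, while DEGs over all rows went from 574 to 1033. With no fold threshold there were 1462, and with the fold threshold the members called were 1 higher and 2 lower. The block called 4297 rows at an adjusted p under 0.05, against 1462 without it. Leaving out 1 library gave 186 (without non-treated replicate 1) to 772 DEGs, 1 to 2 members higher and 1 to 3 lower, and 3 to 8 genes of the 8 lists higher and 1 to 30 lower. Log2 fold changes then ranged from −0.35 to −0.28 for HSPD1, 0.33 to 0.41 for HSPA9, −0.69 to −0.57 for TRAP1, −0.43 to −0.30 for CLPP, −0.78 to −0.66 for HSPE1, 0.68 to 0.77 for LONP1 and −0.33 to −0.16 for GRPEL1. The HSPA9 minus HSPA5 change ranged from −0.0421 to 0.0195 and was 0.0195 without non-treated replicate 2 and 0.0097 without 6j replicate 1. TRAP1 minus HSP90AB1 ranged from −0.0942 to 0.0232, the latter without 6j replicate 3. Both were within the SD between libraries. HSP90B1, not called, ranged from −0.146 to 0.0515, and was 0.0515 without non-treated replicate 3 and 0.0182 without 6j replicate 2. In the paired sign-flip test of the 7 differences, the smallest possible p was 0.25. Per length, HSPD1 was 13.9 times GRPEL1 in non-treated cells, and 16.0 times with the longest transcript as length, where CLPX was the lowest (HSPD1 16.4 times CLPX). The causes of these shifts were not tested. With 3 libraries per group, exact tests cannot go below 0.1, and overlapping exons and pseudogenes limit HSPD1, HSPE1 and TRAP1.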

Other observations

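Mitochondrial antioxidant enzymes, which remove superoxide and peroxides, were divided like the chaperones. Of 7 genes, 2 were higher and 3 lower, with a median log2 fold change of 0.04. Of all rows tested, 4.79% were higher and 4.37% lower. PRDX3, a matrix peroxiredoxin, fell from 198 ± 5.99 to 140.5 ± 7.24 CPM (SD, n = 3 each; log2 fold change −0.49, edgeR adjusted p = 0.00935). SOD2, the matrix superoxide dismutase, rose from 188 ± 14.5 to 256 ± 15.7 CPM (log2 fold change 0.45, edgeR adjusted p = 0.0183). Without non-treated replicate 1 or 6j replicate 2, no gene of this list was called in either direction. Without non-treated replicate 2 or 3, none was higher and 2 were lower. In the order given, DEGs over all rows in these fits were 186, 193, 507 and 379. Of the 13 mRNAs of mitochondrial DNA, 3 were lower and none higher, with a median of −0.52. The blocked fit called 12 lower, and it called 13.9% of all rows lower, against 4.37% in the main fit. DESeq2, with 774 DEGs over all rows against 574 in edgeR, called 10 lower. Without non-treated replicate 1 or 6j replicate 2 none was called, and without non-treated replicate 3 only 1 was. MT-ND3, a complex I subunit, had 351, 296 and 407 CPM in non-treated and 221, 211 and 217 CPM in 6j treated cells (log2 fold change −0.70, edgeR adjusted p = 0.0107). MT-CO1, a complex IV subunit, had a log2 fold change of −0.55 (edgeR adjusted p = 0.0374), a call that held in 1 of 6 fits without 1 library.

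Over the 6 libraries, the genes most like HSPD1 among 13358 genes, by the root mean square difference of centred log2 CPM, were SMIM8 (0.0106), NKRF (0.023) and MRPL32 (0.028). Those most like HSPA9 were ZC3H12C (0.0176), NSUN4 (0.0251) and RAD17 (0.0274). These are descriptions over 6 libraries.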
